A study of Homo sapiens with 132 samples.

Results

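MKN1 cells treated with EGF for 24 h were compared with untreated MKN1 cells of the same time point, across all genes. The rule took the count files whose labels give the cell line MKN1, the time 24 h and either EGF alone or no treatment, which selected 6 of the 132 libraries of the study, 3 for each arm. The study sequenced polyadenylated RNA of gastric cancer cell lines treated with EGF, cetuximab, trastuzumab or afatinib, alone or combined, for 4 h or 24 h. MKN1 is an established line from a metastatic site of a gastric carcinoma and is described in the study as a cetuximab responder. Both arms were grown in RPMI medium with fetal calf serum and antibiotics, so the untreated cells also had the growth factors of serum, and the EGF arm received EGF at 5 ng/ml. No further agent was given to either arm. The replicates are described as biological and come from 1 cell line, so p-values measure the spread between libraries of that line. This spread was estimated over all 42 MKN1 libraries and not over the 6 alone. Further groups used beside them were EGF (5 ng/ml) with cetuximab (1 μg/ml), an EGFR antibody, in MKN1 cells at 24 h, EGF-treated and untreated MKN1 cells at 4 h, and EGF-treated and untreated cells of Hs746T at 24 h, a gastric cancer line described as a cetuximab non-responder. Each of these groups had 3 libraries.

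EGF is a secreted growth factor that binds the receptor tyrosine kinase EGFR, which then pairs with itself or with ERBB2 or ERBB3 and passes the signal to the RAS-MAPK, PI3K-Akt and STAT pathways. The MAPK branch switches on transcription factors of the FOS, JUN, EGR and ETS families within minutes, and these in turn switch on feedback inhibitors, further EGFR ligands and genes of adhesion and secretion. In epithelial cells and carcinomas this pathway is known for its part in proliferation, wound closure, survival and cell movement.

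Total counts ranged from 44782827 to 53598023 over the 6 libraries, and a level of 3 counts corresponded to 0.0560 to 0.0670 CPM (counts scaled to the library total), which covers counting error only. Protein-coding genes took 98.4% to 98.8% of them. Levels below are CPM scaled with edgeR's TMM factors, which were 1.04 to 1.07 in untreated and 0.861 to 0.966 in EGF-treated libraries. The untreated replicate 3 stood closer to the EGF-treated libraries than the other untreated libraries did. It was the untreated library nearest to the EGF mean for 67.3% of the genes called higher and for 61.8% of those called lower, against 43.3% of the genes called in neither direction. The median log2 difference of the genes called higher was 1.50, 1.46 and 1.12 in the pairs of replicates 1, 2 and 3, and that of the genes called lower was -1.53, -1.42 and -1.02. Epithelial markers, summed over EPCAM, CDH1, KRT8, KRT18 and KRT19, ranged from 17827 to 19135 CPM by total counts in untreated and from 16959.6 to 21221 in EGF-treated libraries. The leukocyte markers CD3D, MS4A1 and CD68 were at 0 in all 6 libraries, and the leukocyte list summed to 6.0 to 6.98 CPM in untreated and 3.86 to 4.53 CPM in EGF-treated libraries, most of it CD14.

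After 24 h of EGF, 419 of 19815 genes tested were higher and 1237 were lower than in untreated cells, so that 74.7% of the regulated genes were lower. A gene was called regulated with a p.adjust (edgeR's quasi-likelihood test, Benjamini-Hochberg) below 0.05 and a log2FC (log2 fold change) above 1 or below -1. A rise or fall below means a level higher or lower than in untreated cells of the same time point. It does not mean a change over time in the EGF-treated cells. The calls were 2.11% of all genes tested for the higher and 6.24% for the lower direction, and 8.36% in either, and these are the shares beside which the gene groups below are to be read. At p.adjust below 0.05 without a limit on log2FC, 3432 genes were higher (17.3%) and 3662 lower (18.5%). Without the untreated replicate 3, 498 genes were higher and 1396 lower. These fits had no term for the replicate number. With it as a block, 452 genes were higher and 1388 lower. All 3 EGF-treated libraries lay on the same side of all 3 untreated libraries for 97.4% of the genes called higher and 95.0% of those called lower, beside 42.3% of all genes tested. In the same-numbered pairs, 417 of the 419 and 1226 of the 1237 genes changed in the called direction in all 3 pairs. In RNA of a whole culture, fewer cells of a kind and less RNA per cell cannot be told apart.

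The genes called lower were mostly at low levels. Their median level was 1.11 CPM in untreated and 0.411 CPM in EGF-treated cells, whereas the median gene called higher went from 2.13 to 6.02 CPM. The mean log2 CPM of a gene (prior count of 2) was taken over all 42 MKN1 libraries, so it includes other treatments and 4 h. Where it lay between 0 and 2, 11.4% of the genes were called lower and 2.37% higher. Above a mean log2 CPM of 6, the order was the opposite, with 0.663% lower and 1.75% higher. Of all counts, the genes called higher took 1.08% to 1.43% in untreated and 2.55% to 2.71% in EGF-treated libraries, and the genes called lower took 1.41% to 1.72% and 0.478% to 0.616%. By the annotation, lincRNA genes made up 20.0% of the genes called lower, 12.6% of those called higher and 8.87% of the others, and protein-coding genes 58.9%, 74.0% and 74.9%. All 3 EGF-treated libraries were at 0 for 12 of the genes called lower, so the fitted log2FC of those genes sets no bound. The median log2FC of all genes tested was -0.05. Scaled by library size alone, without TMM, the median was -0.24, and 265 genes were called higher and 1976 lower (88.2% of the calls). This is a shift of -0.20 for the median gene, which applies to the log2FC of EGF against untreated MKN1 cells at 24 h. The size of the shift in the other comparisons is not given.

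**Figure D1:**
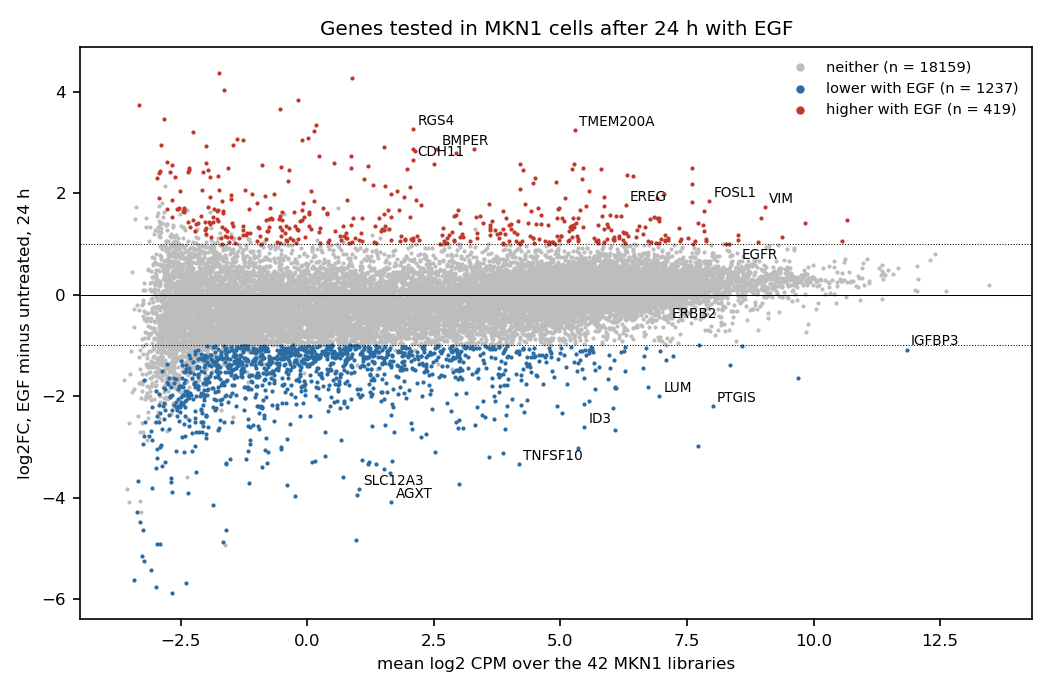
Log2FC (EGF minus untreated, MKN1, 24 h; vertical axis) against the mean log2 CPM of each gene over the 42 MKN1 libraries (horizontal axis). The 419 genes called higher are in red, the 1237 called lower in blue and all others in grey. The blue points lie mostly at low levels, and above a mean log2 CPM of 6 more genes were called higher (1.75%) than lower (0.663%).

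The ligands of EGFR moved in both directions. Of the 11 EGFR ligands and neuregulins, all tested, 4 were called higher and 2 lower, with a median log2FC of 0.05 that is -0.15 with library size scaling. Amphiregulin (AREG, ENSG00000109321, chromosome 4, 74445134 to 74455009 of GRCh38), a membrane-tethered ligand released by shedding, was at 5.80, 6.33 and 17.0 CPM in untreated replicates 1, 2 and 3 and at 24.7, 29.8 and 45.8 CPM in the EGF-treated ones (log2FC 1.79 ± 0.42, p.adjust 0.00104). Every EGF-treated library was above every untreated one, and the untreated replicate 3 was the highest of its arm, so that the log2 difference was 2.08, 2.23 and 1.43 in pairs 1, 2 and 3. Epiregulin (EREG, ENSG00000124882, chromosome 4, 74365143 to 74388751), a ligand of EGFR and ERBB4, was at 31.3, 23.7 and 83.0 CPM against 154, 110.2 and 203 CPM (log2FC 1.76 ± 0.38, p.adjust 5.1e-04). The arms did not overlap for EREG either, and replicate 3 was again the highest in both. HBEGF, the heparin-binding ligand, was at 14.98, 20.3 and 30.9 CPM against 43.6, 51.5 and 49.5 CPM (log2FC 1.13 ± 0.29, p.adjust 0.00287), and TGFA, the ligand first found in transformed cells, went from 18.8 ± 3.73 to 39.4 ± 3.21 CPM (mean ± SD, n = 3; log2FC 1.07 ± 0.18, p.adjust 1.6e-05). These calls are near the limit: HBEGF had a log2FC of 0.92 without the untreated replicate 1 and 0.94 with library size scaling, and TGFA 0.97 without the untreated replicate 2 and 0.88 with library size scaling.

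The transcript of EGF itself (ENSG00000138798, chromosome 4, 109912884 to 110012266), the added ligand, fell. It was at 2.33, 1.96 and 1.22 CPM in untreated and 0.581, 0.421 and 0.715 CPM in EGF-treated replicates (log2FC -1.67 ± 0.24, p.adjust 2.0e-06), with no overlap of the arms. NRG4, a ligand of ERBB4, fell from 1.73 ± 0.242 to 0.510 ± 0.159 CPM (log2FC -1.75 ± 0.30, p.adjust 2.1e-05), and 38.1% of its exon bases are shared with FBXO22, which the counts may not separate. The remaining ligands did not pass the test at 24 h, among them BTC (-0.43), EPGN (-0.48) and NRG1 (-0.48). At 4 h, AREG (2.26), HBEGF (1.37), EREG (1.38) and TGFA (1.25) were called higher as well, while EGF (-0.25) and NRG4 (-0.43) were not called. The difference between 24 h and 4 h passed its own test for EGF (-1.42 ± 0.36, p.adjust 0.0109) but not for NRG4 (-1.32 ± 0.44).

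None of the 4 ERBB receptor genes was called. EGFR, the receptor of EGF, was at 292, 230.4 and 251 CPM in untreated and 447, 353 and 387 CPM in EGF-treated replicates, a log2FC of 0.62 ± 0.17 that passed p.adjust (0.00524) but not the limit on size. ERBB2 (-0.53 ± 0.16, p.adjust 0.00901) and ERBB3 (-0.87 ± 0.20, p.adjust 0.00107), its partner receptors, had negative values, and ERBB4 was at -0.51 ± 0.41 (p.adjust 0.358). Among 11 inhibitors that act on the receptor, none was called at 24 h. ERRFI1, which blocks the kinase domain of EGFR, was at 0.91 after 24 h and was called at 4 h (1.76), and the ubiquitin ligase CBLB had a log2FC of -0.85 at 24 h. Of the 7 sheddases and their partners, which free the ligands from the membrane, 2 were called higher, ADAM12 (1.15) and ADAM19 (1.05). ADAM12 was at 0.90 without the untreated replicate 1 and 0.95 with library size scaling, and ADAM19 at 0.85 without the untreated replicate 2, 0.81 without the EGF-treated replicate 1 and 0.86 with library size scaling. ADAM17, a main sheddase of EGFR ligands, had a log2FC of 0.03.

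Feedback inhibitors of the MAPK branch were higher in part. Of the dual-specificity phosphatases (DUSP), which remove phosphate from MAP kinases, 10 of 11 were tested, 3 were called higher and 1 lower, with a median log2FC of 0.33. DUSP6 (ENSG00000139318, chromosome 12, 89347232 to 89353271), a phosphatase of ERK, was at 15.5, 14.5 and 41.2 CPM in untreated and 71.1, 69.7 and 90.7 CPM in EGF-treated replicates (log2FC 1.70 ± 0.37, p.adjust 5.0e-04), and 40.5% of its exon bases are shared with AC024909.2. The untreated replicate 3 lay well above the other untreated ones and still below every EGF-treated one. DUSP4 (1.56) and DUSP7 (1.22) rose, and DUSP8 (-1.05), which acts on JNK and p38, fell. DUSP5 was called at 4 h (1.28) and had a log2FC of 0.51 at 24 h. Of the 7 Sprouty and SPRED genes, which restrain RAS signalling, 2 were called higher. SPRY4 (ENSG00000187678, chromosome 5, 142310427 to 142326455) was at 17.3, 20.3 and 53.7 CPM in untreated and 103, 92.0 and 112 CPM in EGF-treated replicates (log2FC 1.75 ± 0.34, p.adjust 1.2e-04), with no overlap. SPRED1 (1.06) was at 0.97 without the untreated replicate 1, 0.95 without the untreated replicate 2 and 0.87 with library size scaling. SPRY2 was called at 4 h (1.27) and had 0.32 at 24 h.

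**Figure D2:**
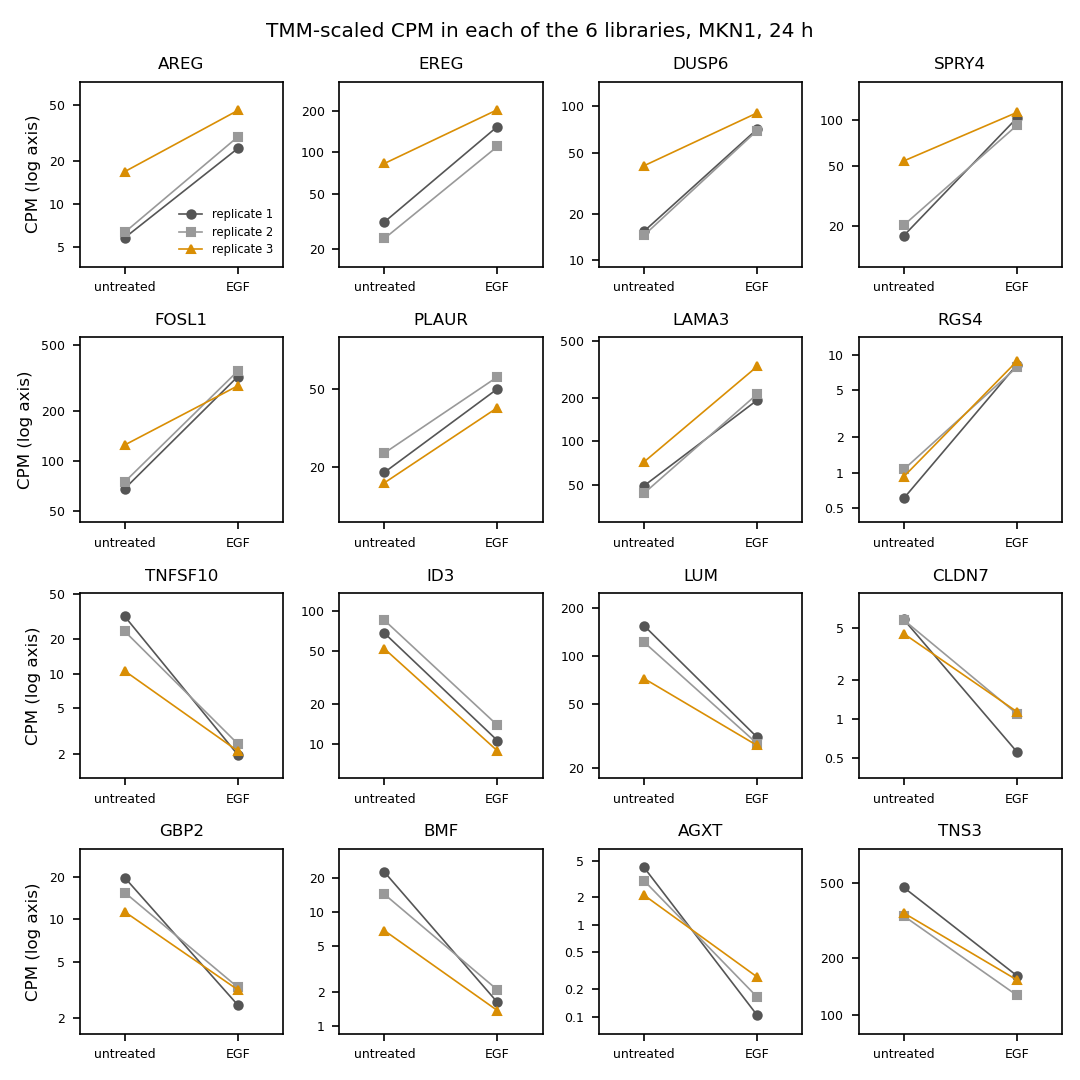
TMM-scaled CPM (log axis) of genes named in the text, in each untreated and EGF-treated library of MKN1 cells at 24 h, where a line joins the libraries of 1 replicate number (circle, square and triangle for replicates 1, 2 and 3). The upper 2 rows hold genes called higher and the lower 2 rows genes called lower. For all genes shown except PLAUR, RGS4 and TNS3, the untreated triangle lies nearest to the EGF-treated points.

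Of the early response transcription factors, 27 of 30 were tested, 5 were called higher and 1 lower. At p.adjust below 0.05 alone (edgeR), 14 were higher and 5 lower. FOSL1 (ENSG00000175592, chromosome 11, 65892049 to 65900573), a FOS family member that forms AP-1 with JUN proteins, was at 68.3, 75.1 and 125 CPM in untreated and 325, 350.4 and 285 CPM in EGF-treated replicates (log2FC 1.84 ± 0.28, p.adjust 4.4e-06). The EGF-treated libraries were all above the untreated ones. Other FOS and JUN family genes of the list moved in both directions and were not called. JUN was at 0.83, and FOS (-0.83), JUND (-0.69) and FOSL2 (-0.47) had negative values, each with p.adjust below 0.05 (edgeR). MYC, the growth regulator, rose from 21.1 ± 3.77 to 53.2 ± 2.49 CPM (log2FC 1.34 ± 0.23, p.adjust 2.6e-05), and the ETS factors ETV1 (1.28) and ELK3 (1.12) rose as well, ELK3 reaching 0.93 with library size scaling, where it was not called. EGR2, a zinc finger factor of the immediate early class, was called higher at 4 h (1.96) and lower at 24 h (log2FC -1.69 ± 0.41, p.adjust 0.00151). That call rested on the untreated replicate 1: EGR2 was at 5.00, 1.39 and 2.13 CPM in untreated and 0.664, 0.772 and 1.20 CPM in EGF-treated replicates, and without replicate 1 the log2FC was -0.98. PHLDA1 (1.49) and PHLDA2 (1.39), pleckstrin homology-like genes of the same early class, rose at 24 h, and the EGR corepressors NAB1 (-0.20) and NAB2 (0.19) were not called.

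FOS and JUN proteins are known to bind the letters TGANTCA, which read the same on both strands. These letters were searched in promoters of RefSeq (GRCh38.p14) that run from 250 bases before to 50 bases after the RefSeq gene start. They occurred in 13.5% of 259 promoters of genes called higher, 9.38% of 704 of genes called lower, 4.94% of 12052 of genes called in neither direction, and 7.73% of all 27195 promoters of that length. Of the other letters searched on both strands, the shares for higher, lower and neither were 1.93%, 1.70% and 3.02% for TGACGTCA (CRE, all promoters 1.98%), 1.16%, 0.426% and 1.29% for GCGTGGGCG (EGR, all 0.787%), 1.16%, 1.42% and 2.51% for TTTCCCGC (E2F, all 1.67%) and 10.8%, 7.24% and 9.34% for CACGTG (E-box, all 7.45%). None of these strings contains the AP-1 letters, and the shares are a description, with no test. Of the named regulated genes, 9 higher and 8 lower ones had the AP-1 letters in this window. The following promoters, 5′ to 3′ on the strand of the gene, show these letters in capitals for the secreted or surface proteins PLAUR, IL11 and CXCL8, which rose, and for EGF, which fell, so that both directions can be compared.
PLAUR promoter, chr19:43670120-43670419, minus strand: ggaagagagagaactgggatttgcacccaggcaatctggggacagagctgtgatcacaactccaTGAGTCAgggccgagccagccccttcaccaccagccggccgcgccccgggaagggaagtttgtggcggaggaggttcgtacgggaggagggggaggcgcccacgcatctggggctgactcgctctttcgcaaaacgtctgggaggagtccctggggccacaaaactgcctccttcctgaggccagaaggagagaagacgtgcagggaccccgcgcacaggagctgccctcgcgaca
IL11 promoter, chr19:55370414-55370713, minus strand: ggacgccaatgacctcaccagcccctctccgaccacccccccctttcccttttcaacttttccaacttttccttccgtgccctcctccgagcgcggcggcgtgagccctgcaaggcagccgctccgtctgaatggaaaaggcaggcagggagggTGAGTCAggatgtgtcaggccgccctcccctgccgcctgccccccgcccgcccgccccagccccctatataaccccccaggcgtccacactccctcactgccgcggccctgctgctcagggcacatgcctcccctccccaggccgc
CXCL8 promoter, chr4:73740319-73740618, plus strand: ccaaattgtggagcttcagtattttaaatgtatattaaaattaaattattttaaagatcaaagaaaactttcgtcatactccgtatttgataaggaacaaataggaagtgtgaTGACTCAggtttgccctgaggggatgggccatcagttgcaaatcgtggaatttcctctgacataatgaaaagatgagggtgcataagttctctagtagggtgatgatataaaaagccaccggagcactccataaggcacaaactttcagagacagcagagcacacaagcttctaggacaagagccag
EGF promoter, chr4:109912633-109912932, plus strand: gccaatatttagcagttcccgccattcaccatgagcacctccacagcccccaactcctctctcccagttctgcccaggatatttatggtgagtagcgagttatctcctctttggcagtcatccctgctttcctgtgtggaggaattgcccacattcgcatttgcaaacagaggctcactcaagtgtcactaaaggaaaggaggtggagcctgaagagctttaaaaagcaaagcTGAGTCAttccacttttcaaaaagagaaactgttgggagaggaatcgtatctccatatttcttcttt
Counted from the RefSeq gene start, the first match starts 186 bases before it in PLAUR, 96 in IL11, 137 in CXCL8 and 17 in EGF. GENCODE, from which the gene coordinates in the text are taken, places the start of PLAUR and of CXCL8 further upstream, and the whole PLAUR window lies inside the gene by GENCODE.

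Secreted signals of inflammation and growth moved in both directions. Of the interleukins and related cytokines, 25 of 36 were tested, 7 were called higher and 3 lower, where 7 were higher and 6 lower at p.adjust below 0.05 alone (edgeR). Their median log2FC was 0.11, which turned to -0.08 with library size scaling. CSF2 (GM-CSF), a myeloid growth factor, was at 0.125, 0.184 and 0.644 CPM in untreated and 2.05, 2.69 and 2.22 CPM in EGF-treated replicates (log2FC 2.90 ± 0.43, p.adjust 2.5e-06). IL11, a cytokine of the IL-6 family, was at 4.36, 4.97 and 8.33 CPM against 23.3, 26.7 and 24.4 CPM (log2FC 2.08 ± 0.23, p.adjust 1.4e-08). Neither gene had overlapping arms. IL1B (3.07) and IL33 (2.63), IL-1 family cytokines, also rose, from mean levels of 0.0991 and 0.0478 CPM that lie near or below the level of 3 counts. TNFSF10 (ENSG00000121858, chromosome 3, 172505508 to 172523507), the death ligand TRAIL, was at 31.7, 23.5 and 10.6 CPM in untreated and 1.97, 2.46 and 2.13 CPM in EGF-treated replicates (log2FC -3.33 ± 0.28, p.adjust 1.2e-10). Every EGF-treated library was far below the lowest untreated one, replicate 3, and the log2 difference was -3.98, -3.24 and -2.30 in pairs 1, 2 and 3. IL34, a ligand of CSF1R, fell as well (-1.80), and TNFSF15, a TNF family cytokine, was called higher at 4 h (1.11) and lower at 24 h (-1.46). Of the chemokines, 12 of 20 were tested and 3 were called higher, the neutrophil attractants CXCL8 (1.68), CXCL5 (1.98) and CXCL1 (1.16). CXCL1 was at 1.07, p.adjust 0.0716 without the untreated replicate 1, 0.97 without the EGF-treated replicate 1 and 0.96 with library size scaling.

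Of the cytokine receptors, 56 of 59 were tested, 5 were called higher and 5 lower. IL13RA2, the decoy receptor of IL-13, rose from 0.393 ± 0.367 to 3.18 ± 0.936 CPM (log2FC 3.05 ± 0.60, p.adjust 1.6e-04), and GHR, the growth hormone receptor, from 9.36 ± 0.451 to 45.9 ± 3.11 CPM (log2FC 2.29 ± 0.12, p.adjust 1.1e-15). The GHR difference was larger at 24 h than at 4 h (1.17) by the test of the difference (p.adjust 3.0e-05). TNFRSF1B (1.35), a TNF receptor, also rose. PRLR (-1.91), the prolactin receptor, and both chemokine receptors that bind CXCL12, CXCR4 (-1.49) and ACKR3 (-1.84), fell. CXCR4 was lower at 4 h already (-1.49). Of the JAK-STAT pathway, 21 of 22 genes were tested and 1 was called, STAT4 (-1.36), a STAT of lymphoid cells. Of the PI3K-Akt pathway, 36 of 38 were tested, 0 were called higher and 3 lower, where 7 were higher and 9 lower at p.adjust below 0.05 alone (edgeR). They were PIK3R3, a regulatory subunit of PI3K (-1.29), DDIT4, an mTOR inhibitor (-1.25, with 41.2% of its exon bases shared with another gene), and FOXO6, a forkhead factor of the FOXO class (-1.35). Of the 15 NF-kB subunits and feedback genes, 1 was called, NFKBIZ (-1.20), an atypical nuclear IkB protein.

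The plasminogen and coagulation genes had the highest share of calls of all lists. Of 16 listed genes, 12 were tested, and 7 of these were called higher and 0 lower, with 1 lower at p.adjust below 0.05 alone (edgeR) and a median log2FC of 1.11 beside -0.05 for all genes. PLAUR (ENSG00000011422, chromosome 19, 43646095 to 43670547), the urokinase receptor, was at 18.7, 23.5 and 16.5 CPM in untreated and 50.3, 58.0 and 40.2 CPM in EGF-treated replicates (log2FC 1.34 ± 0.25, p.adjust 8.2e-05). Its arms did not overlap, and replicate 2 was the highest of both. SERPINB2, an inhibitor of plasminogen activators, went from 0.0911 ± 0.0232 to 1.35 ± 0.271 CPM (log2FC 3.83 ± 0.32, p.adjust 8.4e-11), and 19.9% of its exon bases are shared with SERPINB10. F2RL1, the protease-activated receptor PAR2, rose as well (1.37).

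Within the matrix and its receptors, the chains moved apart. Of the 12 laminin chains, 2 were called higher and 1 lower. LAMA3 (ENSG00000053747, chromosome 18, 23689443 to 23956222) was at 49.1, 43.5 and 72.1 CPM in untreated and 194, 214 and 334 CPM in EGF-treated replicates (log2FC 2.17 ± 0.26, p.adjust 6.3e-08). It is an α chain of epithelial basement membranes, and the arms did not overlap. LAMB3, a β chain of the same membranes, was at 0.58 and not called. LAMB4 was at 3.54, 2.41 and 1.52 CPM against 0.187, 0.327 and 0.232 CPM (log2FC -3.34 ± 0.40, p.adjust 7.4e-08). LAMA5 (-0.73) and LAMB2 (-0.86), chains of other basement membrane laminins, had negative values within the limit on size. Of the integrin subunits, 22 of 25 were tested, 3 were called higher and 1 lower. ITGA2, the collagen-binding α2 subunit, rose from 29.8 ± 14.0 to 152 ± 33.8 CPM (log2FC 2.35 ± 0.36, p.adjust 6.0e-06), and ITGA6, the laminin-binding α6 subunit, rose by 1.54 on the log2 scale.

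Of the collagen chains, 41 of 44 were tested, 4 were called higher and 3 lower, with a median log2FC of -0.28. COL6A3 (2.46), COL13A1 (2.73) and the basement membrane chains COL4A1 (1.29) and COL4A2 (1.59) rose. COL5A2, a chain of fibrillar collagen V, fell from 41.4 ± 11.5 to 14.5 ± 2.08 CPM (log2FC -1.51 ± 0.20, p.adjust 3.4e-07). Of the matrix glycoproteins and proteoglycans, 53 of 60 were tested, 2 were called higher and 6 lower. VCAN, the proteoglycan versican, rose from 26.1 ± 13.3 to 107 ± 16.6 CPM (log2FC 2.04 ± 0.24, p.adjust 4.6e-08). LUM, the small proteoglycan lumican, was at 155, 122 and 72.6 CPM in untreated and 31.2, 28.5 and 27.7 CPM in EGF-treated replicates (log2FC -2.00 ± 0.22, p.adjust 1.9e-08). The untreated libraries spread more than the EGF-treated ones, and the arms did not overlap, with log2 differences of -2.31, -2.10 and -1.39 in pairs 1, 2 and 3. The fibroblast markers COL1A1, COL1A2, DCN, LUM, PDGFRA and PDGFRB summed to 92.5 to 187 CPM by total counts in untreated and 35.5 to 39.8 CPM in EGF-treated libraries, of which LUM held the largest part. Of these 6 markers, 3 were called lower (LUM, DCN at -3.33 and PDGFRB at -1.66), COL1A1 (-0.49) and COL1A2 (0.28) were not called, and PDGFRA did not exceed 0.195 CPM in any of the 6 libraries. DCN had mean levels of 0.301 CPM in untreated and 0.0285 CPM in EGF-treated cells. The second lies below the level of 3 counts, so the size of its fall is uncertain. The part of other cells in these differences was not tested.

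Of the matrix metalloproteinases and their inhibitors, 13 of 27 were tested, 2 were called higher and 4 lower. The stromelysin MMP3 (2.50) and the gelatinase MMP9 (1.70, with 18.4% of its exon bases shared with SLC12A5-AS1) rose, and the collagenase MMP13 (-2.44) and the matrilysin MMP7 (-1.45) fell. These 4 were at low levels, the highest mean being 1.35 CPM for MMP9 with EGF. The membrane-bound MMP14 was more abundant and fell from 35.0 ± 5.13 to 16.9 ± 3.67 CPM (log2FC -1.05 ± 0.16, p.adjust 4.1e-06), a call near the limit that was at -0.94 without the untreated replicate 2 and at -0.96 and -0.96 without the EGF-treated replicates 1 and 3. MMP11, a stromelysin, was called lower as well (-1.07, with 4.21% of its exon bases shared with CHCHD10), and was at -0.98 without the untreated replicate 1 and -0.79 without the EGF-treated replicate 2. Of the 21 collagen-modifying enzymes, 0 were called by edgeR, with 5 higher and 2 lower at p.adjust below 0.05 alone. HAS2, a hyaluronan synthase, was the 1 of 10 hyaluronan genes called at 24 h (2.05) and was at 3.46 after 4 h, and HAS3 was called at 4 h (1.27) but not at 24 h (0.49). CD44, the hyaluronan receptor, had a log2FC of 0.67. Of the 14 prostaglandin genes, PTGIS, the prostacyclin synthase, fell from 242 ± 90.5 to 52.9 ± 4.98 CPM (log2FC -2.19 ± 0.28, p.adjust 2.7e-07), and SLCO2A1, a prostaglandin transporter, rose by 1.52 on the log2 scale.

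Genes of epithelial junctions were lower where they were called. Of 44 such genes, 41 were tested, 0 were called higher and 9 lower, where 2 were higher and 16 lower at p.adjust below 0.05 alone (edgeR), and the median log2FC was -0.48 (-0.68 with library size scaling). CLDN7 (ENSG00000181885, chromosome 17, 7259903 to 7263983), a tight junction claudin, was at 5.85, 5.80 and 4.55 CPM in untreated and 0.560, 1.10 and 1.14 CPM in EGF-treated replicates (log2FC -2.53 ± 0.39, p.adjust 4.9e-06). The arms did not overlap, and the EGF-treated replicate 1 was the lowest. TJP3, a scaffold of tight junctions, fell from 14.7 ± 0.928 to 3.13 ± 1.07 CPM (log2FC -2.22 ± 0.34, p.adjust 4.1e-06). CDH1, E-cadherin, was at 3.11, 2.17 and 2.34 CPM against 0.747, 1.43 and 0.850 CPM (log2FC -1.35 ± 0.35, p.adjust 0.00261). EPCAM, an epithelial adhesion molecule, had a log2FC of 0.02. At 4 h, CLDN7 (-0.31), TJP3 (-0.48) and CDH1 (0.23) were not called, and the test of the difference between 24 h and 4 h passed for each of these.

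Of the mesenchymal genes, 12 of 13 were tested, 3 were called higher and 1 lower. VIM, the intermediate filament vimentin, was at 300.3, 315 and 318 CPM in untreated and 984, 1263 and 846 CPM in EGF-treated replicates (log2FC 1.73 ± 0.21, p.adjust 1.2e-07), with 24.4% of its exon bases shared with VIM-AS1. CDH11, a mesenchymal cadherin, rose from 1.78 ± 0.990 to 11.1 ± 1.77 CPM (log2FC 2.65 ± 0.33, p.adjust 1.6e-07) and NT5E, the surface enzyme CD73, from 14.3 ± 1.97 to 81.2 ± 10.1 CPM (log2FC 2.50 ± 0.31, p.adjust 1.3e-07). PDGFRB, a receptor of mesenchymal cells, fell (-1.66). The EMT transcription factors, which repress epithelial genes, were not called at 24 h in any of the 7 that were tested of 9, with SNAI2 at 0.62 and ZEB1 at 0.55. By p.adjust below 0.05 alone (edgeR), 2 of these were higher, and SNAI2 was called at 4 h (1.30).

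Of the keratins, 17 of 21 were tested, with 1 called higher and 1 lower, the wound-associated KRT6A (log2FC 2.22 ± 0.55, p.adjust 0.00180) and KRT4 of stratified mucosa (log2FC -2.70 ± 0.49, p.adjust 5.2e-05). KRT8 (0.19), KRT18 (0.42) and KRT19 (0.07), keratins of simple epithelium, were not called. Of the genes of squamous differentiation, 21 of 31 were tested, 6 were called higher and 1 lower. LYPD3, a surface protein of stratified epithelium, rose from 8.47 ± 2.51 to 39.0 ± 6.10 CPM (log2FC 2.21 ± 0.24, p.adjust 2.2e-08), and PI3, an elastase inhibitor, rose by 1.28 on the log2 scale. Of the gastric and intestinal genes, 24 of 35 were tested, 2 were called higher and 3 lower. The mucins MUC1 (-1.41) and MUC16 (-1.42) and the galectin LGALS4 (-1.12) fell, and the annexin ANXA10 (3.35) and the forkhead factor FOXA3 (1.26) rose.

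**Figure D3:**
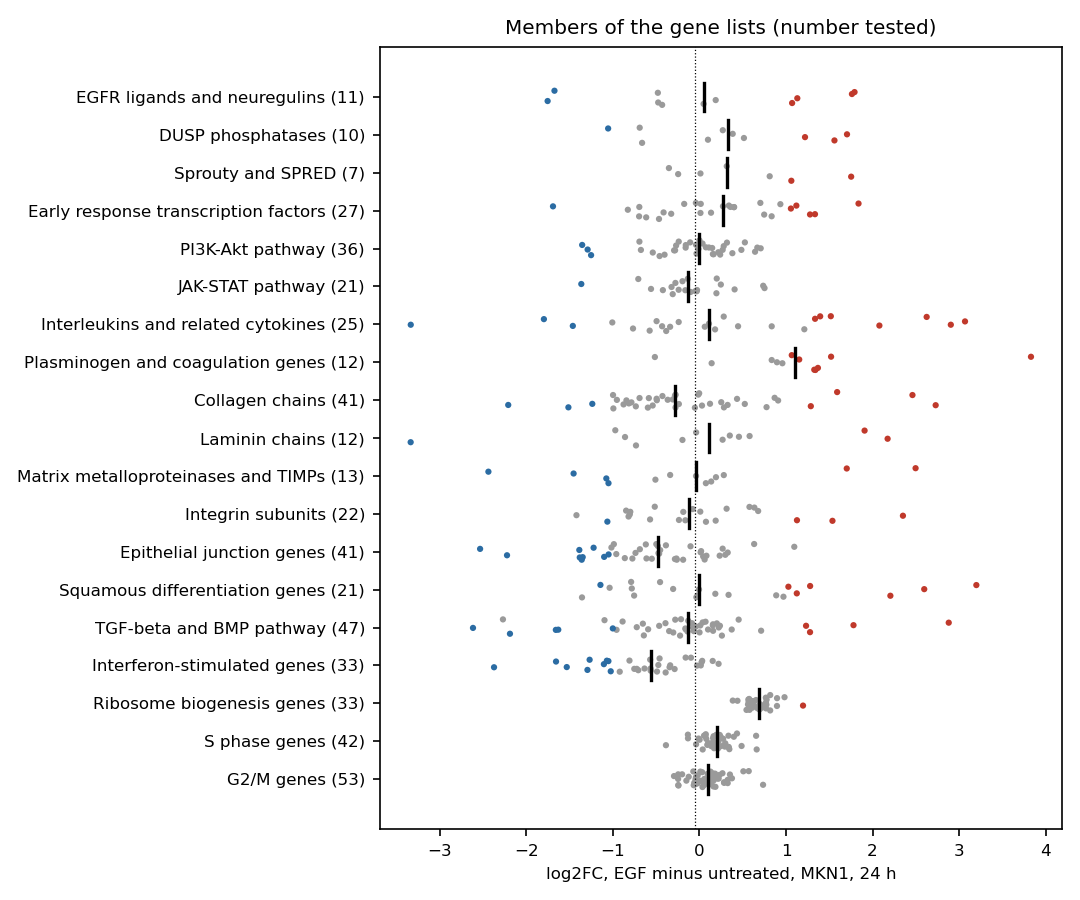
Log2FC (EGF minus untreated, MKN1, 24 h; horizontal axis) of each tested member of the gene lists (vertical axis), with called members coloured by direction and the median of each list marked. The plasminogen and coagulation list has its median at 1.11, and all 9 called members of the epithelial junction list and of the interferon list lie on the lower side.

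Other surface receptors and guidance cues were regulated in both directions. Of the receptor tyrosine kinases outside the ERBB family, 31 of 34 were tested, 3 were called higher and 5 lower. MET, the receptor of hepatocyte growth factor, rose from 86.4 ± 13.9 to 195 ± 2.93 CPM (log2FC 1.18 ± 0.16, p.adjust 6.7e-07) and was at 0.98 with library size scaling, where it was not called. TEK (-2.23), the angiopoietin receptor, LTK (-1.80), a kinase related to ALK, and PDGFRB (-1.66) fell. TEK is also an endothelial marker, and the endothelial markers summed to 14.8 to 29.8 CPM by total counts in untreated and 9.90 to 21.2 CPM in EGF-treated libraries. Of these 5 markers 4 were tested, with a median log2FC of -0.91. PECAM1 (-0.31), VWF (-0.24) and CDH5 (-1.50 ± 1.04, at 0 to 10 counts a library) were not called, and the part of such cells was not tested. Of the ephrins and their receptors, 19 of 22 were tested and 1 was called higher, EPHA8 (1.02), whose call was lost on leaving out any of the 6 libraries other than the EGF-treated replicate 3 (p.adjust 0.0609 to 0.273). Of the semaphorins, plexins, netrins and SLITs, 43 of 46 were tested, 2 were called higher and 8 lower. SEMA6D (-2.37), SEMA3C (-1.50) and the netrin receptor UNC5B (-1.58) fell, and SEMA6A (1.37) rose. Of the G protein-coupled receptors, 54 of 69 were tested, 6 were called higher and 3 lower. NTSR1, the neurotensin receptor, rose from 72.9 ± 32.0 to 287 ± 25.2 CPM (log2FC 1.98 ± 0.26, p.adjust 3.7e-07), and the nucleotide receptor P2RY2 (1.41) and the adrenoceptor ADRA1D (1.51) rose as well. AVPR1A, a vasopressin receptor, had a mean of 0.0599 CPM in untreated cells and 0 counts in all EGF-treated libraries, at least 2.85-fold lower against a floor of 3 counts over the 3 libraries. Its call was lost on leaving out any of the 6 libraries other than the untreated replicate 3 (p.adjust 0.0511 to 0.190).

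In the TGF-beta and BMP pathway, 47 of 51 genes were tested, 4 were called higher and 5 lower. ID3 (ENSG00000117318, chromosome 1, 23557918 to 23559794), an inhibitor of helix-loop-helix factors and a common target of BMP signals, was at 68.1, 85.0 and 52.0 CPM in untreated and 10.7, 13.9 and 8.95 CPM in EGF-treated replicates (log2FC -2.61 ± 0.20, p.adjust 1.6e-11). The arms were far apart, with replicate 2 the highest in both. ID2 (-1.63) and ID4 (-2.19) fell as well. The BMP antagonist NOG (noggin) was at 2.05, 2.94 and 4.12 CPM against 18.7, 25.2 and 22.9 CPM (log2FC 2.88 ± 0.21, p.adjust 9.0e-12), and the antagonist GREM1 (1.23) and the ligand BMP6 (1.78) rose. BMPER, a secreted BMP regulator chosen by its size of change, rose from 2.43 ± 0.685 to 17.8 ± 2.67 CPM (log2FC 2.88 ± 0.17, p.adjust 5.6e-14). Of the Notch pathway, 26 of 28 genes were tested and 1 was called, the ligand JAG1 (1.50). Of the Wnt pathway, 43 of 51 were tested, 2 were called higher and 5 lower, among them the ligands WNT6 (-2.41) and WNT11 (-1.32), which fell. Of the other growth factors, 38 of 47 were tested, 5 were called higher and 3 lower. PTHLH, the parathyroid hormone-related protein, rose from 26.0 ± 7.53 to 131 ± 2.82 CPM (log2FC 2.33 ± 0.19, p.adjust 8.5e-11), and VEGFC, a lymphatic growth factor, by 1.51 on the log2 scale. The carriers of insulin-like growth factors moved apart, with IGFBP4 at 1.47 and IGFBP3 at -1.08.

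Genes of proliferation changed by small amounts. Of the G1 cyclins, CDKs and inhibitors (18 of 21 tested), of S phase (42 of 43) and of G2/M (53 of 54), 0 were called in either direction by edgeR. At p.adjust below 0.05 alone, 17 S phase genes were higher and 1 lower, and 9 G2/M genes were higher and 1 lower. The S phase median was 0.20 (0.01 with library size scaling) and the G2/M median 0.11, which turned to -0.08 with library size scaling. CCND3, cyclin D3, had a log2FC of 0.61 and RBL2, a pocket protein of the retinoblastoma family, -0.67. Genes of ribosome biogenesis, by contrast, moved nearly as 1 group within the limit on size. Of 33 of 35 that were tested, 1 was called, the nucleolar factor LYAR (1.20, 0.99 and not called with library size scaling), while 32 were higher and 0 lower at p.adjust below 0.05 alone (edgeR). Their median log2FC was 0.69 at 24 h, 0.49 with library size scaling, and 0.16 at 4 h.

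Of the BCL2 family, 14 of 16 genes were tested, 0 were called higher and 2 lower (edgeR, with 5 higher at p.adjust below 0.05 alone). BMF (ENSG00000104081, chromosome 15, 40087890 to 40108892), a pro-apoptotic BH3-only protein, was at 22.3, 14.3 and 6.87 CPM in untreated and 1.62, 2.08 and 1.37 CPM in EGF-treated replicates (log2FC -3.11 ± 0.35, p.adjust 2.8e-08). The untreated replicate 3 was the lowest of its arm and still above every EGF-treated library. Of the p53 target genes, 24 of 26 were tested and 1 was called higher, the nuclease AEN (1.00, 0.81 with library size scaling, 0.93 and 0.96 without the untreated replicates 1 and 2 and 0.95 without the EGF-treated replicate 1). Of the interferon-stimulated genes, 33 of 42 were tested, 0 were called higher and 9 lower, where 1 was higher and 18 lower at p.adjust below 0.05 alone (edgeR), and the median log2FC was -0.56. GBP2, a guanylate-binding protein of host defence, was at 19.7, 15.5 and 11.3 CPM against 2.49, 3.32 and 3.19 CPM (log2FC -2.37 ± 0.23, p.adjust 2.0e-09). SAMD9L (-1.66), XAF1 (-1.53, with 38.3% of its exon bases shared with PRAL) and the galectin LGALS9 (-1.29) fell as well. Of the genes of MHC class I and checkpoint ligands, 13 of 17 were tested and 0 were called (edgeR), with 5 lower and 0 higher at p.adjust below 0.05 alone.

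Metabolic genes were rarely called. HK2, a hexokinase of glycolysis, rose from 40.2 ± 6.27 to 98.8 ± 14.0 CPM (log2FC 1.30 ± 0.10, p.adjust 4.0e-11), and PDK4, which holds back pyruvate oxidation, fell from 30.3 ± 7.66 to 12.8 ± 2.49 CPM (log2FC -1.24 ± 0.27, p.adjust 6.0e-04). These were the called genes among 26 of 28 of the glycolysis list, of which 13 were higher and 2 lower at p.adjust below 0.05 alone. Of the fatty acid genes (18 of 19 tested) and the serine, one-carbon and amino acid genes (24 of 25), 0 were called by edgeR, with 4 and 8 higher and 6 and 3 lower at p.adjust below 0.05 alone. Of the cholesterol genes, 25 of 26 were tested and 1 was called, INSIG1, a brake on sterol synthesis (-1.19, and -0.93 without the untreated replicate 1). Of the lysosome and autophagy genes, 46 of 49 were tested, 1 was called higher and 2 lower, among them the cathepsin CTSO (-1.34). Of the primary cilium genes, 49 of 55 were tested and 2 were called lower, both of the hedgehog pathway, the transcription factor GLI1 (-1.33) and the receptor PTCH1 (-1.10). PTCH1 was called lower at 4 h too (-1.23), and its 24 h call was lost without the untreated replicate 1 (-0.95) and without the EGF-treated replicate 2 (-0.97).

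Tensins, which tie integrins to actin, moved apart. TNS4, the short epithelial tensin, rose from 86.2 ± 59.0 to 485 ± 40.5 CPM (log2FC 2.49 ± 0.33, p.adjust 4.9e-07). TNS3 (ENSG00000136205, chromosome 7, 47275154 to 47582558) was at 472, 333 and 346 CPM in untreated and 162, 127 and 154 CPM in EGF-treated replicates (log2FC -1.38 ± 0.16, p.adjust 3.3e-08). For both genes the arms did not overlap. They belong to a list of actin and YAP target genes with 28 of 31 tested, 2 called higher and 2 lower. KANK4, a protein of focal adhesions, fell from 7.03 ± 5.25 to 0.528 ± 0.180 CPM (log2FC -3.73 ± 0.46, p.adjust 1.3e-07).

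Genes were ranked by size where the mean log2 CPM over the 42 MKN1 libraries was above 1 and all 3 pairs had 1 direction. That mean includes other treatments and 4 h, so a gene can pass by its level outside the compared libraries. CSF2 had a mean log2 CPM of 1.525, beside mean levels of 0.3175 CPM in untreated and 2.322 CPM in EGF-treated cells. Among the ranked genes, the highest rise was RGS4 (ENSG00000117152, chromosome 1, 163068775 to 163076802), an inhibitor of G protein signals, at 0.605, 1.06 and 0.923 CPM in untreated and 8.17, 7.81 and 8.77 CPM in EGF-treated replicates (log2FC 3.26 ± 0.34, p.adjust 5.3e-09). It was followed by TMEM200A (3.25), CSF2 (2.90), NOG (2.88), BMPER (2.88), MIR100HG (2.87), ESM1 (2.83), FOXL1 (2.79), CDH11 (2.65) and APCDD1L-DT (2.58). MIR100HG and APCDD1L-DT are long RNAs without a protein, and ESM1 is a secreted proteoglycan known from endothelium. The largest fall was AGXT (ENSG00000172482, chromosome 2, 240868479 to 240880502), an aminotransferase of glyoxylate known from liver, at 4.22, 3.02 and 2.10 CPM against 0.104, 0.164 and 0.271 CPM (log2FC -4.09 ± 0.49, p.adjust 8.2e-08). It was followed by SLC12A3 (-3.82), KANK4 (-3.73), TRIM31 (-3.52), STON1-GTF2A1L (-3.44), LAMB4 (-3.34), TNFSF10 (-3.33), ATOH8 (-3.29) and SLCO2B1 (-3.27) and a gene without a symbol, ENSG00000254140 (-3.34). STON1-GTF2A1L is a read-through of neighbouring genes that shares 89.0% of its exon bases with STON1, so their reads cannot be told apart here. SLC12A3 is a sodium-chloride carrier known from kidney, and SLCO2B1 an anion carrier.

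The effect of EGF at 24 h was set beside that at 4 h, which comes from other libraries. At 4 h, 244 genes were called higher (1.23% of 19815) and 49 lower (0.247%), so that the lower direction held fewer calls at 4 h and more at 24 h. In either direction, 1.48% of all genes were called at 4 h. Genes called at both time points numbered 145, which is 49.5% of the 4 h calls and 8.76% of the 24 h calls. Of these, 122 were higher and 18 lower at both, and 5 went in opposite directions. The genes higher at 24 h had a median log2FC of 0.74 at 4 h, and the genes lower at 24 h one of -0.26. By the test of the difference itself, the effect was higher at 24 h for 78 genes (0.394%) and lower for 457 (2.31%), and with the replicate number as a block these counts were 132 and 757. Without the untreated replicate 1 of 24 h they were 40 and 298, and without the untreated replicate 3 of 24 h 129 and 548. Among named genes, CDH11 (2.13 ± 0.44 for 24 h minus 4 h), VIM (1.32 ± 0.29) and IGFBP4 (1.21 ± 0.22) differed toward higher and LUM (-1.96 ± 0.30), PTGIS (-2.06 ± 0.38), GBP2 (-2.16 ± 0.33) and BMF (-2.51 ± 0.54) toward lower values at 24 h. For the ligands AREG (-0.46 ± 0.57) and EREG (0.39 ± 0.53), for SPRY4 (0.14 ± 0.46), DUSP6 (-0.14 ± 0.51), FOSL1 (0.68 ± 0.38) and PLAUR (0.10 ± 0.35), the test of the difference did not pass.

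**Figure D4:**
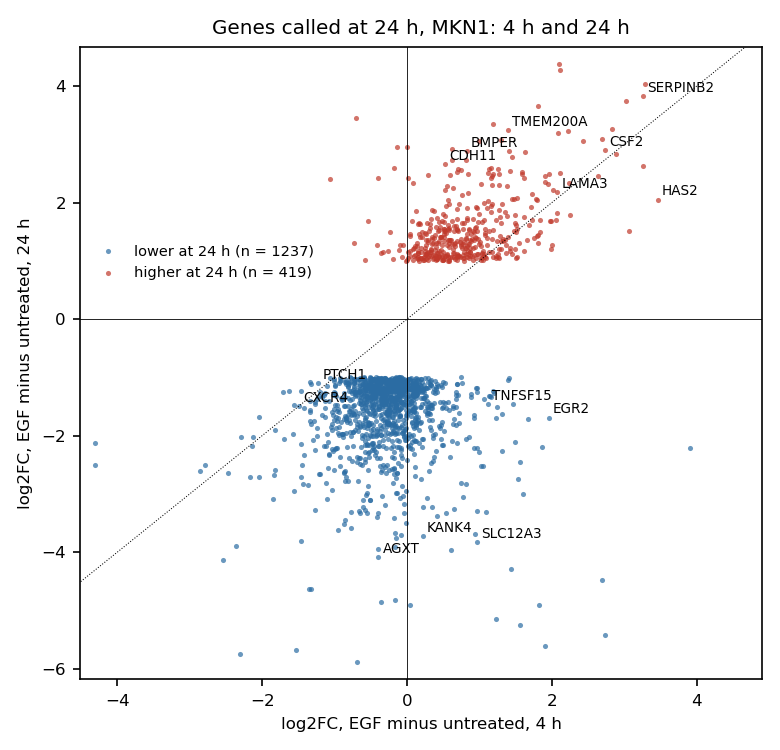
Log2FC at 24 h (vertical axis) against log2FC at 4 h (horizontal axis), both EGF minus untreated in MKN1 cells, for the 1656 genes called at 24 h, with those higher in red and those lower in blue. The dotted line marks equal values, and most genes lower at 24 h lie near 0 on the 4 h axis (median -0.26).

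Cells given EGF with cetuximab for 24 h shared the untreated libraries with the EGF comparison when set against untreated cells, and the EGF-treated libraries when set against EGF, so only values side by side are given. Against untreated cells, 107 genes were higher (0.54%) and 562 lower (2.84%) with EGF and cetuximab. Against EGF alone, 7 genes were higher (0.0353%) and 24 lower (0.121%). The median log2FC of the 419 genes higher with EGF was 0.82 for EGF with cetuximab against untreated, and that of the 1237 lower genes was -0.97. AREG was at 13.2, 14.6 and 21.1 CPM in the libraries with EGF and cetuximab (log2FC against untreated 0.75, with EGF alone 1.79). In each replicate number, this level lay between the untreated and the EGF-treated library. For SPRY4 the 2 values were 0.72 and 1.75, for DUSP6 0.64 and 1.70, and for PLAUR 0.62 and 1.34. For genes that fell, they were -2.61 and -3.33 for TNFSF10, -2.40 and -3.11 for BMF, and -1.74 and -2.00 for LUM.

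**Figure D5:**
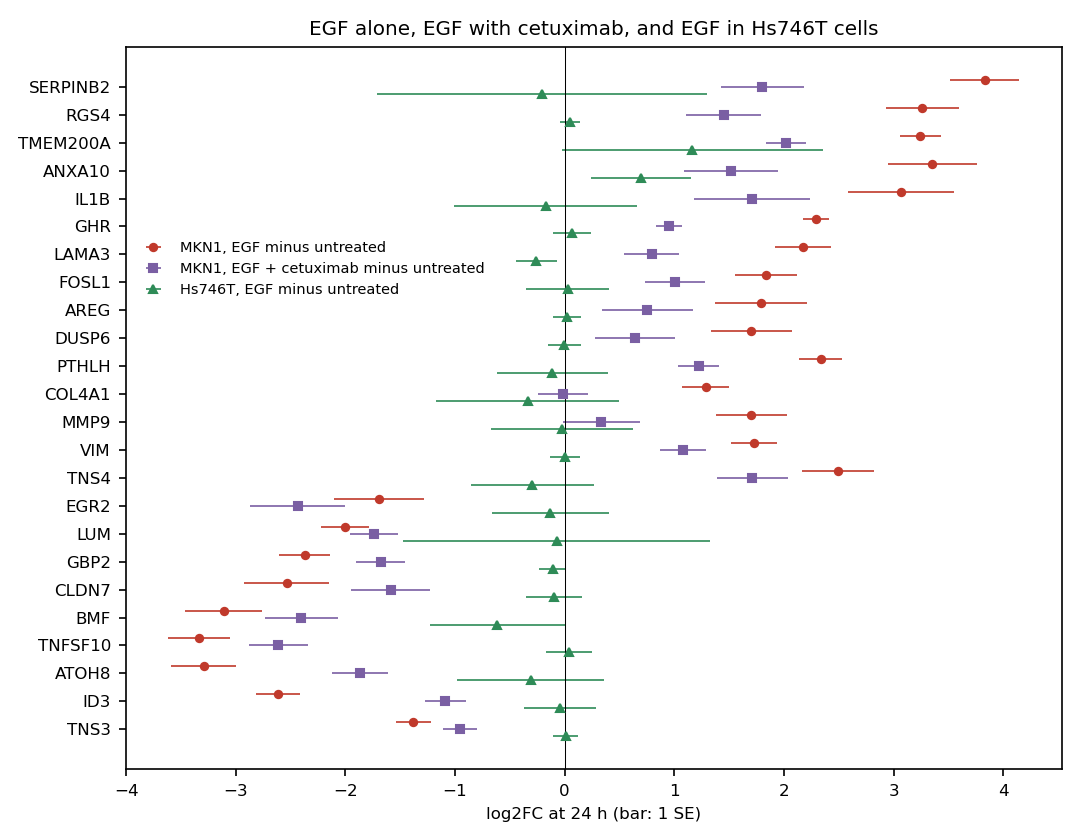
Log2FC at 24 h (horizontal axis, point ± 1 SE) of named genes for EGF in MKN1 cells (red circles), EGF with cetuximab in MKN1 cells (purple squares, sharing the untreated libraries with the red) and EGF in Hs746T cells (green triangles), each against untreated cells. For AREG the values are 1.79, 0.75 and 0.02, and for EGR2 -1.69, -2.44 and -0.13.

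In Hs746T cells, 0 of 18667 genes were called after the same EGF treatment for 24 h by edgeR's test. This fit had no term for the replicate number, and Hs746T was not fitted by itself with one. At an unadjusted p below 0.05 the test listed 155 genes (0.83%), beside 933 that 5% of the genes tested would give, and the smallest adjusted p was 0.999989. With so few small p-values the test was conservative here, so the absence of calls does not show that EGF had no effect. The genes called higher in MKN1 cells had a median log2FC of 0.01 in Hs746T cells, over the 349 that were tested there, and the genes called lower one of -0.05 over 857. Tested directly over both lines, the EGF effect was higher in MKN1 than in Hs746T cells for 246 of 21267 genes (1.16%) and lower for 467 (2.2%), and with the replicate number as a block for 376 and 815. Without the untreated replicate 1 of MKN1 cells the counts were 183 and 276. AREG was at 9.99, 9.55 and 10.9 CPM in untreated and 9.04, 11.1 and 10.8 CPM in EGF-treated Hs746T replicates (log2FC 0.02), and its difference between the lines was 1.76 ± 0.45 (p.adjust 0.00601). The difference also passed for SPRY4 (1.70 ± 0.41), DUSP6 (1.70 ± 0.40), FOSL1 (1.80 ± 0.47), MYC (1.37 ± 0.26), PLAUR (1.29 ± 0.39), LAMA3 (2.42 ± 0.33) and VIM (1.72 ± 0.27), which rose in MKN1 cells, and for TNFSF10 (-3.38 ± 0.35), ID3 (-2.58 ± 0.40), GBP2 (-2.27 ± 0.27) and BMF (-2.49 ± 0.75), which fell there. It did not pass for EREG (1.62 ± 0.59, p.adjust 0.0702) or LUM (-1.78 ± 1.18, p.adjust 0.417).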

How the data were processed

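Polyadenylated RNA was sequenced paired end from directional libraries. Per the labels, the processing used Trim Galore, STAR and hg38, and the authors deposited 1 table per library with unnormalized counts on Ensembl identifiers. Versions, the counting program and its strand setting are not given in the sources used here, so reads of overlapping genes may be split. Of 65217 identifiers, 56813 were matched to GENCODE release 29 (GRCh38), and the 8404 others held 0.0370% of the counts. The 37 mitochondrial genes were at 0.

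Genes were tested with edgeR 4.0.16 (R 4.3.3) by glmQLFit and glmQLFTest after TMM and filterByExpr, set to a count of 10 and a total of 15. The 42 MKN1 libraries shared 1 fit, with a mean for each treatment at each time, the 42 Hs746T libraries likewise, and all 84 for the difference between the lines. The SE is the absolute log2FC divided by the square root of the F statistic, and the common biological coefficient of variation was 12.8%. CPM of single genes are TMM-scaled. Lists are described by counts and medians, with no test of the list. In simulated data on 19662 genes with 200 changed, genes with a log2FC of 1.5 were called in 100% of cases and 3 unchanged genes were called. The changed genes were drawn only from those above a minimum mean count, and no replicate effect was simulated. The 100% therefore does not apply to genes at low levels.

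Labels share replicate numbers. Deviations from the group mean correlated between same-numbered untreated and EGF-treated libraries (Pearson's r across genes 0.27, 0.42 and 0.26). The numbers were therefore taken as pairs where differences are given pair by pair. The main fits had no term for the replicate number, so the calls, SE and p.adjust values in the text leave the pairing out. The block by replicate was fitted as an alternative. No replicates agreed within sampling noise. The comparison, the gene lists and the tests were chosen with earlier results of these data known.

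Genes named are the ERBB receptors and EGFR ligands, and the 10 largest changes in each direction (mean log2 CPM above 1 over the 42 MKN1 libraries, 1 direction in all pairs). Also named are up to 4 called members of a list in each direction or 2 with the smallest p where none was called. The 5 largest differences in each direction between time points and between lines are named as well. A few genes that these rules name are not reported here. Further members of a list and the pathway genes set beside them were named after their values were seen. Gene coordinates are from GENCODE. Plots used matplotlib 3.10.9 in Python 3.11.15. The results were recomputed with DESeq2 1.42.0, with library size in place of TMM, with a fit of the compared groups by themselves, without the filter or with 10 or more counts required in each library compared, with the replicate block, with each library left out, and with p.adjust alone.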

Additional observations from a re-analysis of the deposited data

Results flagged for a closer look

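The effect of EGF differed between 24 h and 4 h, by the test of the difference in edgeR, for genes chosen as those furthest apart in each direction. Values are the log2FC at 24 h minus that at 4 h, with SE. They were MARCH4 (2.20 ± 0.39), CDH11 (2.13 ± 0.44), BMPER (2.05 ± 0.23), LINC00941 (1.87 ± 0.23) and TMEM200A (1.86 ± 0.25) toward higher values at 24 h, and SLC12A3 (-4.79 ± 1.01), KANK4 (-3.95 ± 0.69), POU2F3 (-3.91 ± 0.71), AGXT (-3.69 ± 0.70) and LAMB4 (-3.29 ± 0.57) toward lower values. TMEM200A was called higher at both time points (3.25 at 24 h and 1.39 at 4 h). MARCH4 was at 59.0, 58.0 and 36.8 CPM in untreated and 70.1, 73.2 and 43.6 CPM in EGF-treated replicates at 4 h, and at 15.4, 15.2 and 17.7 CPM and 110.4, 91.6 and 67.0 CPM at 24 h. SLC12A3 was at 0.136, 0.0250 and 0.108 CPM and 0.134, 0.342 and 0.0549 CPM at 4 h, and at 3.10, 2.45 and 1.05 CPM and 0.124, 0.164 and 0.174 CPM at 24 h. The untreated level thus differed between the time points as well, lower at 24 h for MARCH4 and higher at 24 h for SLC12A3. POU2F3, a POU domain transcription factor, had log2FC of 0.64 and -3.26.

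The effect of EGF at 24 h also differed between MKN1 and Hs746T cells by the test of the difference. Values are the log2FC in MKN1 minus that in Hs746T cells, with SE. They were RGS4 (3.20 ± 0.33), CSF2 (2.96 ± 0.57), BMPER (2.89 ± 0.80), NOG (2.86 ± 0.25) and MIR100HG (2.83 ± 0.39) toward higher values in MKN1, and KLHDC7A (-6.29 ± 1.31), LINC01695 (-6.16 ± 1.95), TRIM31 (-3.97 ± 0.88), LAMB4 (-3.67 ± 0.50) and TNFSF10 (-3.38 ± 0.35) toward lower values. The Hs746T counts given here are not scaled to depth. Untreated replicate 2 held 25832557 counts in total, against 54372306 in EGF-treated replicate 2. RGS4 had 7046, 3016 and 5283 counts in untreated and 6829, 6484 and 5536 counts in EGF-treated Hs746T replicates, so the gene was expressed there without a call. For TRIM31 the Hs746T counts were 14, 9 and 13 and 19, 14 and 26. KLHDC7A and LINC01695 were below the filter when Hs746T was fitted alone. KLHDC7A had 0 counts in all 3 untreated and 6, 3 and 2 counts in the EGF-treated Hs746T replicates, and LINC01695 had 0 and 5, 2 and 1, so the sizes of these 2 differences rest on few counts and set no bound. In MKN1 cells alone their log2FC were -1.40 and -1.71.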

How the results depend on the processing

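For EGF against untreated cells at 24 h, leaving out 1 library in turn gave 346 to 498 higher and 971 to 1396 lower genes, the smallest without the untreated replicate 1 and the largest without the untreated replicate 3. DESeq2 (441 and 1177), only the compared groups (381 and 980), no filter (442 and 1163) and the replicate block that uses the pairing (452 and 1388) stayed within 1.5 times. Library size alone gave 265 higher and 1976 lower, at least 10 counts in every library gave 307 and 731 from fewer genes tested, and p.adjust alone 3432 and 3662. For the difference between 24 h and 4 h, the higher genes numbered 49 with library size alone, 132 with the replicate block and 913 by p.adjust alone, and 40 to 129 on leaving out 1 library, and the lower genes 757 with the block, 962 by p.adjust alone and 298 to 562 on leaving out 1 library. For the difference between the lines, the higher genes numbered 159 with library size alone, 376 with the block and 1029 by p.adjust alone, and 183 to 316 on leaving out 1 library. The lower genes numbered 235 with only the compared groups, 787 with library size alone, 815 with the block, 895 by p.adjust alone and 276 to 532 on leaving out 1 library. Of 179 named genes called in MKN1 at 24 h, the block kept all 179 calls, library size alone lost 23 and leaving out the untreated replicate 1 lost 26, with no call reversed. Of 1061 values of named genes that were not called, 52 took the other sign. Apart from scaling and the filter, whose construction shows it, the cause of these shifts was not tested. With 3 libraries an arm, a simulated log2FC of 0.5 in genes above a minimum mean count passed p.adjust alone in 46% of cases. It was called in 0%, which follows from the limit on log2FC.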
